A study of Arabidopsis thaliana with 24 samples.

Results

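The genes described here are DFR (AT5G42800), AT4G14090 and UGT78D2 (AT5G17050), 3 of the 13355 genes that had a probe set annotated with a single gene symbol on the ATH1 array. They were chosen by name as genes of anthocyanin and flavonol synthesis, with earlier results of these data known. They are therefore not an unselected set. Each had 1 single-gene probe set, and these 3 were read among 22746 probe sets in all. DFR is dihydroflavonol reductase, the enzyme that turns colourless dihydroflavonols toward anthocyanins. AT4G14090 is an anthocyanin glucosyltransferase, which adds glucose to the pigment. UGT78D2 is a flavonoid glucosyltransferase that acts on both flavonols and anthocyanidins.

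Flavonoids are made from phenylalanine through the general phenylpropanoid pathway. Chalcone synthase and chalcone isomerase open the flavonoid branch, flavonol synthase and DFR then compete for the same dihydroflavonols, and glycosyltransferases and acyltransferases decorate the products so that they can be stored in the vacuole. In Arabidopsis leaves, flavonols act as sunscreens, anthocyanins colour stressed tissue, and the late genes from DFR onward are under the control of MYB, bHLH and WD40 proteins.

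RNA came from whole Arabidopsis thaliana plants, 1 array per sample, 3 arrays (A, B and C) in each of 8 groups. The genotypes were mkk1/mkk2, a double knockout labelled without allele names, mkk1 (SALK_027645), mkk2 (Garlic_511-HO1) and Col-0, the wild-type accession. Each was sampled 24 h after BTH (benzothiadiazole), an analogue of salicylic acid used to switch on plant defence, and untreated. MKK1 and MKK2 are mitogen-activated protein kinase kinases that act together in a defence signalling cascade, and plants that lack both are dwarfed. The untreated Col-0 samples are titled as time 0 and the untreated mutants as not treated, with no time and no mock spray. The treatment notes state a 100 µM spray for 6 of the BTH arrays, those of mkk1/mkk2 and mkk2, and a control treatment for the other 6, those of mkk1 and Col-0. The description field of every sample reads as untreated wild type. Genotype and BTH labels therefore rest on titles and source names. Each single mutant is represented by 1 line, and the probe sets of MKK1 and MKK2 themselves were not analysed here. The labels do not say whether the 3 samples of a group were separate plants or pools, and p-values measure only the spread between these samples.

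Levels are log2 values normalised by RMA, so 1 unit is 2-fold, and levels of different probe sets are not compared. The number of arrays limits the precision. Values ran from 2.27 to 14.14 and array medians from 5.57 to 5.78. Chitinase CHI (AT2G43570), picked from earlier results as a BTH-responsive gene, was 8.64 to 9.36 on the mkk1 BTH arrays and 5.29 to 6.32 on the untreated mkk1 arrays. In Col-0 it was 8.77 to 9.50 after BTH and 4.39 to 5.23 untreated, and since it was picked on these arrays it is no independent check of the labels. The added control transcripts bioC and bioD parted the arrays into sets. Their difference was -3.48 to -3.07 on the 12 arrays of mkk1 and mkk2 and -1.96 to -1.53 on the 12 arrays of mkk1/mkk2 and Col-0. A difference between a single mutant and either Col-0 or mkk1/mkk2 cannot be told apart from a difference between these sets. Each BTH response, mkk1 against mkk2, and mkk1/mkk2 against Col-0 stayed within a set. Array A of untreated mkk1/mkk2 stood apart, with a mean correlation of 0.933 with its group, followed outside that group by Col-0 BTH A at 0.975 and mkk2 untreated B at 0.976. Where leaving them out ended or brought a call, or turned a sign, this is stated below. Other shifts of values are given only in part.

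DFR stood highest in untreated mkk1 plants and fell after BTH there. Its level was 5.15, 4.49 and 5.01 on the mkk1 BTH arrays A, B and C, and 6.79, 7.98 and 7.17 on the untreated mkk1 arrays. All 3 BTH arrays lay below all 3 untreated ones, as 17% of all probe sets did. The fitted change was -2.43 ± 0.53 (SE, n = 3 each, 95% interval -3.53 to -1.33), a 5.39-fold lower level, with limma's Benjamini-Hochberg adjusted p = 0.0054. In that comparison 3.81% of all probe sets were called lower at an adjusted p under 0.05, and 0.594% changed by more than DFR in either direction. The exact two-sided permutation test of 3 arrays against 3 gave p = 0.1, the smallest it can give.

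No other genotype showed a called DFR response. In mkk2 the level was 5.56, 5.40 and 4.76 after BTH and 5.27, 7.35 and 5.49 untreated. The single high untreated array, B, is one that stood apart, and the groups overlapped. The change was -0.80 ± 0.53 (95% interval -1.89 to 0.30, limma adjusted p = 0.447), and -0.14 without mkk2 untreated B. In mkk1/mkk2, DFR was 6.13, 5.97 and 5.98 after BTH and 5.68, 6.37 and 6.20 untreated, with a change of -0.06 (95% interval -1.15 to 1.04), or -0.26 without mkk1/mkk2 untreated A. In Col-0 it was 5.65, 5.57 and 4.14 after BTH and 4.20, 6.28 and 5.32 untreated. The Col-0 groups overlapped and each held 1 low array. The change was -0.15 (95% interval -1.24 to 0.95), and leaving out single arrays moved it between -0.68 (without Col-0 untreated A) and 0.36 (without Col-0 untreated B). Without the arrays that stood apart it was -0.41.

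AT4G14090 gave the tightest group of the 3 genes in untreated mkk1. It was 5.43, 4.51 and 5.28 on the mkk1 BTH arrays and 7.40, 7.36 and 7.16 on the untreated mkk1 arrays. The groups did not overlap. The change was -2.23 ± 0.39 (SE, n = 3 each, 95% interval -3.05 to -1.42, 4.70-fold lower, limma adjusted p = 0.0008), and 0.765% of probe sets changed by more. In mkk2 it was 5.90, 5.98 and 4.64 after BTH and 5.90, 6.84 and 5.11 untreated, with overlap and a change of -0.44 (95% interval -1.26 to 0.37), which became 0.0017 without mkk2 untreated B. In mkk1/mkk2 it was 5.24, 4.86 and 4.92 after BTH and 5.10, 5.08 and 5.25 untreated, a change of -0.14 (95% interval -0.95 to 0.68). In Col-0 it was 5.70, 5.31 and 4.62 after BTH and 5.39, 6.23 and 6.0 untreated, which overlapped, with a change of -0.66 (95% interval -1.48 to 0.15, limma adjusted p = 0.375). Without the arrays that stood apart this Col-0 change was -0.91, not called (adjusted p = 0.108).

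**Figure D1:**
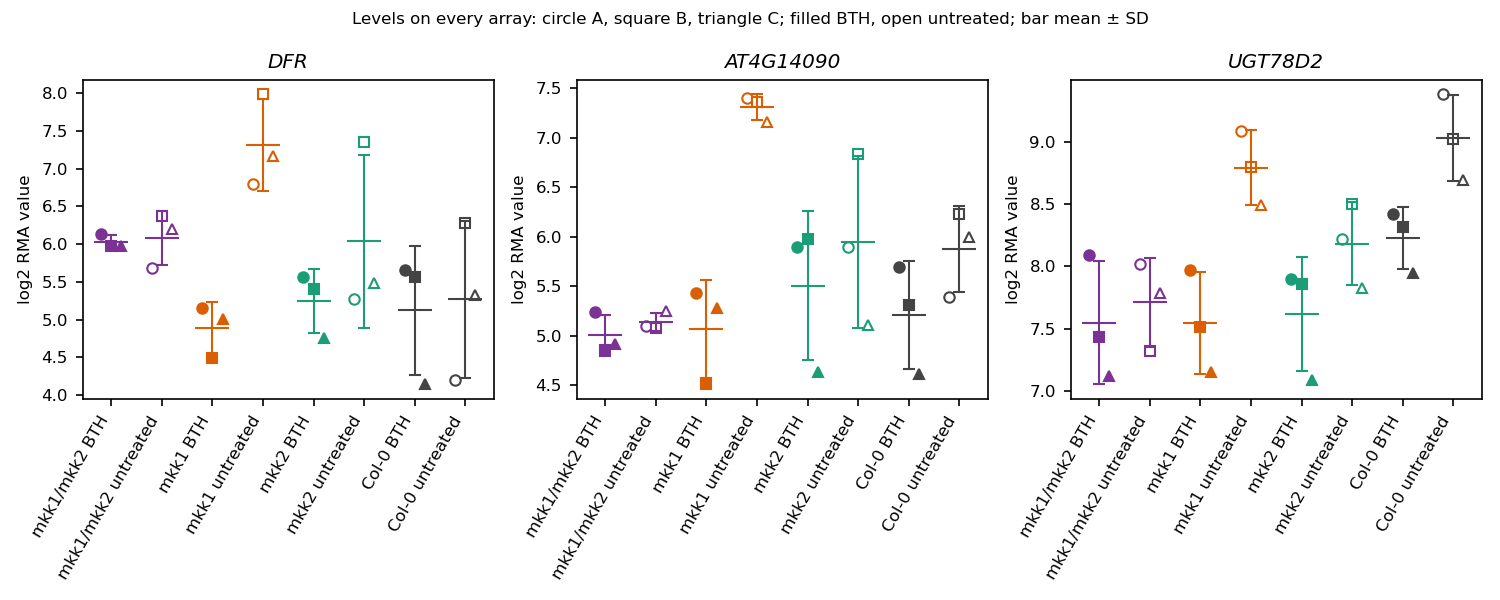
Levels of DFR, AT4G14090 and UGT78D2 (log2 RMA value) on every array, by group; symbols are the 3 arrays A, B and C, filled for BTH and open for untreated, and bars are the mean ± SD. For DFR and AT4G14090 the untreated mkk1 arrays (6.79 to 7.98 and 7.16 to 7.40) lie above both mkk1 BTH and untreated Col-0, while UGT78D2 is high in both untreated mkk1 and untreated Col-0.

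UGT78D2 also fell in mkk1, by less. Its level was 7.97, 7.51 and 7.15 on the mkk1 BTH arrays and 9.09, 8.80 and 8.49 on the untreated mkk1 arrays, without overlap. The change was -1.25 ± 0.29 (SE, n = 3 each, 95% interval -1.85 to -0.65, 2.38-fold lower, limma adjusted p = 0.0087), and 3.38% of probe sets changed by more. Without mkk1 untreated A it was -1.10 and no longer called (adjusted p = 0.0589). In Col-0, UGT78D2 was 8.42, 8.32 and 7.95 after BTH and 9.38, 9.02 and 8.69 untreated. All 3 Col-0 BTH arrays lay below the untreated ones, as 15.2% of probe sets did, but the change of -0.80 ± 0.29 (95% interval -1.40 to -0.20) did not pass the test (limma adjusted p = 0.0991). With the replicate letter as a block it was called (adjusted p = 0.00778).

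In mkk2 the UGT78D2 level was 7.90, 7.86 and 7.09 after BTH and 8.22, 8.50 and 7.83 untreated, which overlapped, with a change of -0.57 (95% interval -1.17 to 0.04). In mkk1/mkk2 it was 8.09, 7.43 and 7.12 after BTH and 8.02, 7.32 and 7.79 untreated, and the change was -0.16 (95% interval -0.77 to 0.44), or -0.0083 without mkk1/mkk2 untreated A. UGT78D2 was thus highest on array A in 7 of the 8 groups, whereas DFR was highest on A in 4 and AT4G14090 in 4. Its neighbours in the reference gene table, AT5G17040 and UGT78D3 (AT5G17030), a flavonol arabinosyltransferase, varied little. Over all 24 arrays AT5G17040 ran from 3.94 to 4.83 and UGT78D3 from 3.06 to 3.75, the latter near the low end of the scale.

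Over the BTH responses, 3 of 3 genes were called in mkk1, where 8.57% of all probe sets were called, and 0 of 3 in mkk2 (10.7%), mkk1/mkk2 (0.334%) and Col-0 (8.82%). Their median change was -2.23 in mkk1, -0.57 in mkk2, -0.14 in mkk1/mkk2 and -0.66 in Col-0, while the medians over all probe sets lay between -0.06 and -0.01. A call in mkk1 and none in Col-0 does not by itself show that the responses differ. The difference in response, mkk1 minus Col-0, was -2.28 ± 0.74 for DFR (95% interval -3.84 to -0.73, limma adjusted p = 0.353). It was -1.57 ± 0.55 for AT4G14090 (95% interval -2.72 to -0.42, adjusted p = 0.358) and -0.45 for UGT78D2 (95% interval -1.30 to 0.40). None was called, nor was any of the 22746 probe sets with limma (0%), although 2237 had an unadjusted p under 0.05. The unadjusted intervals of DFR and AT4G14090 lie below 0. For mkk2 minus Col-0 the differences were -0.65, 0.22 and 0.23 for DFR, AT4G14090 and UGT78D2, and for mkk1/mkk2 minus Col-0 they were 0.09, 0.53 and 0.64. None of these was called, where 0.022% and 2.33% of all probe sets were. Without the arrays that stood apart the mkk2 minus Col-0 differences were 0.27, 0.91 and 0.49, also not called.

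Before treatment, DFR and AT4G14090 were higher in mkk1 than in Col-0. The untreated mkk1 levels of DFR averaged 7.31 ± 0.61, and those of Col-0 5.27 ± 1.04 (SD, n = 3 each), without overlap. The difference was 2.05 ± 0.53 (SE), 4.13-fold, with a limma adjusted p = 0.0110. AT4G14090 averaged 7.31 ± 0.13 in untreated mkk1 and 5.87 ± 0.43 in untreated Col-0, also without overlap, a difference of 1.43 ± 0.39 (2.70-fold, limma adjusted p = 0.0150). In this comparison 17.3% of all probe sets were called, 9.46% as higher, and 20.5% were higher without overlap. UGT78D2 averaged 8.79 ± 0.30 in untreated mkk1 and 9.03 ± 0.35 in untreated Col-0, which overlapped (-0.24, limma adjusted p = 0.678). The 3′ minus 5′ signal of the GAPDH controls, a sign of RNA quality, was 0.26 to 0.31 in untreated mkk1 and 0.70 to 1.18 in untreated Col-0, without overlap, and its part in these differences was not tested.

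Leaving out 1 array could end either call. Without Col-0 untreated A, DFR differed by 1.51 (adjusted p = 0.0915) and AT4G14090 by 1.19 (adjusted p = 0.0970). Without mkk1 untreated B the DFR difference was 1.71 (adjusted p = 0.0611), and without mkk1 untreated A the AT4G14090 difference was 1.39 (adjusted p = 0.0539). The same 3 untreated mkk1 arrays enter this comparison and the BTH response of mkk1, so the rise and the fall are not separate measurements. AT4G14090 on all 3 of these arrays was above every one of the other 21 arrays, the highest of which was mkk2 untreated B at 6.84. DFR was above 20 of 21, and UGT78D2 above 17 of 21. The share of all probe sets placed in this way was not computed. The mkk1/mkk2 and Col-0 arrays among the 21 lie in the other array set, which cannot be told apart from genotype here.

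The comparison of mkk1 with mkk2 stayed within 1 array set. Untreated, DFR averaged 7.31 ± 0.61 in mkk1 and 6.04 ± 1.14 in mkk2, with overlap, a difference of 1.28 ± 0.53 (95% interval 0.18 to 2.37). AT4G14090 averaged 7.31 ± 0.13 in mkk1 and 5.95 ± 0.87 in mkk2, without overlap, and differed by 1.36 ± 0.39 (95% interval 0.54 to 2.17). UGT78D2 differed by 0.61 (95% interval 0.01 to 1.21) and overlapped. None was called (limma adjusted p = 0.999), where 0.0044% of probe sets were called and 3.1% were higher without overlap. Without the 3 arrays that stood apart, mkk2 untreated B among them, DFR differed by 1.93 (adjusted p = 0.0284) and AT4G14090 by 1.80 (adjusted p = 0.0141), and both were called. The differences in BTH response, mkk1 minus mkk2, were -1.63 for DFR (95% interval -3.19 to -0.08), -1.79 for AT4G14090 (95% interval -2.94 to -0.64) and -0.68 for UGT78D2, again not called (adjusted p = 0.999, 0.0044% of probe sets called). Without those arrays the AT4G14090 value was -2.24 (adjusted p = 0.0315).

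In the untreated double mutant, UGT78D2 alone of the 3 genes was called against Col-0. It averaged 7.71 ± 0.36 in untreated mkk1/mkk2 and 9.03 ± 0.35 in untreated Col-0 (SD, n = 3 each). It was lower on every array, by -1.32 ± 0.29 (SE, limma adjusted p = 0.0012, 2.50-fold lower), where 33.3% of all probe sets were called, 17.2% as lower, and 11.7% changed by more. DFR averaged 6.08 ± 0.36 in untreated mkk1/mkk2 and 5.27 ± 1.04 in untreated Col-0, with overlap (0.82, 95% interval -0.28 to 1.91, adjusted p = 0.267). AT4G14090 averaged 5.14 ± 0.09 in untreated mkk1/mkk2 and 5.87 ± 0.43 in untreated Col-0. It was lower on every array but not called (-0.73, 95% interval -1.54 to 0.08, adjusted p = 0.170), and 18.6% of probe sets were lower without overlap. In untreated mkk2 against Col-0, 0 of 3 genes were called, against 7.63% of all probe sets. UGT78D2 there differed by -0.85 ± 0.29 without overlap, as 13.8% of probe sets were lower (limma adjusted p = 0.0788, and 0.00882 with the replicate letter as a block), DFR by 0.77 and AT4G14090 by 0.08. Without mkk2 untreated B these 2 values were 0.11 and -0.37.

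After BTH, 0 of 3 genes were called in any mutant against Col-0. DFR was 5.97 to 6.13 in mkk1/mkk2 and 4.14 to 5.65 in Col-0, higher without overlap (0.91, 95% interval -0.19 to 2.00, limma adjusted p = 0.261). In mkk1/mkk2 against Col-0, 21.6% of all probe sets were called, and 18% were higher without overlap. UGT78D2 differed from Col-0 by -0.68 in mkk1/mkk2, -0.69 in mkk1 and -0.61 in mkk2, and of these only the mkk2 arrays (7.09 to 7.90) did not overlap those of Col-0 (7.95 to 8.42), as 12.3% of probe sets were lower in mkk2. In mkk1 the differences of DFR and AT4G14090 were -0.24 and -0.14, in a comparison where 0.62% of probe sets were called. In mkk2 they were 0.12 and 0.30 (1.83% called). Without Col-0 BTH A they were 0.028 and 0.11 in mkk1, and 0.39 and 0.54 in mkk2. Between mkk1 and mkk2 after BTH the differences were -0.36, -0.43 and -0.07 for DFR, AT4G14090 and UGT78D2, none called, and 0.0308% of probe sets were.

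**Figure D2:**
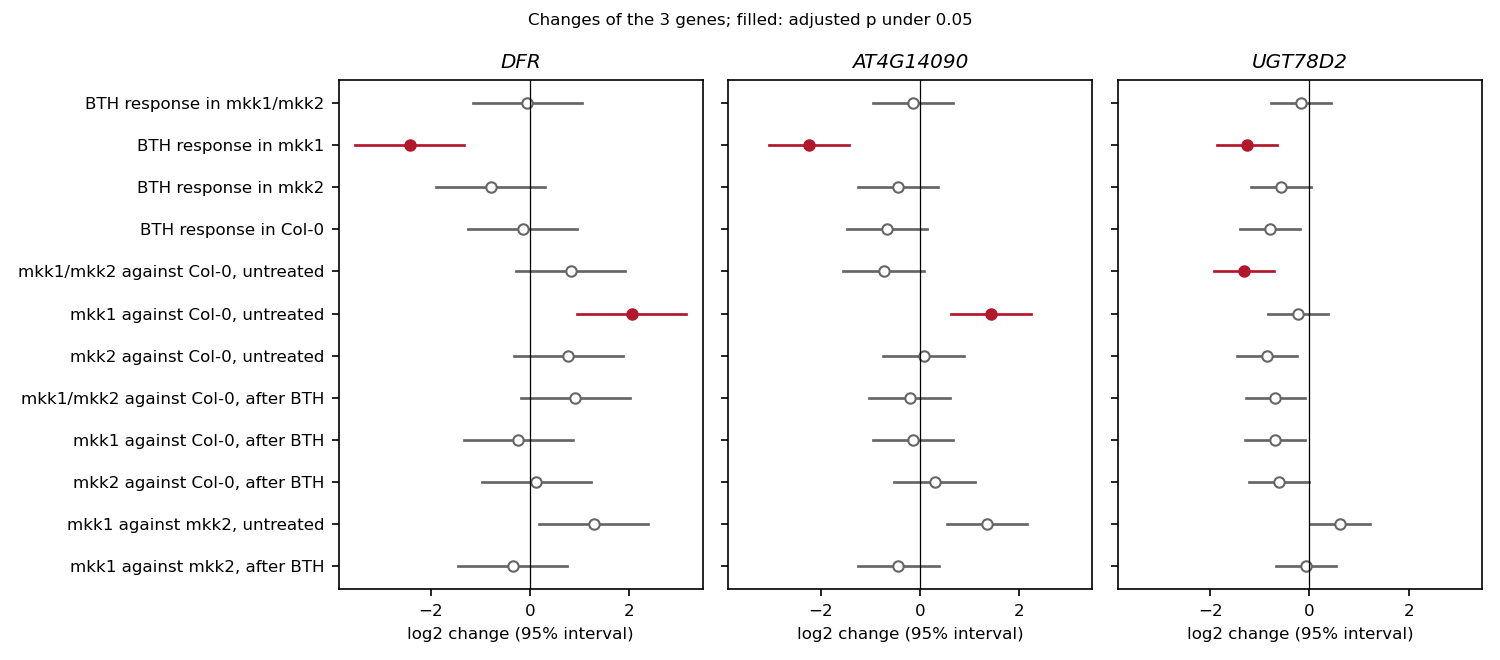
Log2 change of DFR, AT4G14090 and UGT78D2 in 12 comparisons, the group named first minus the other; lines are unadjusted 95% intervals and filled red points have an adjusted p under 0.05. The 3 genes were called in the BTH response of mkk1, DFR and AT4G14090 in untreated mkk1 against Col-0, and UGT78D2 in untreated mkk1/mkk2 against Col-0.

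Ordered by mean level, the 8 groups fell into few steps. For DFR, untreated mkk1 (7.31) was followed by untreated mkk1/mkk2 (6.08), a gap of 1.23 without overlap. Those groups lie in different array sets, so this gap cannot be told apart from one between the sets. Every later pair of neighbours overlapped down to mkk1 BTH at 4.88. Untreated mkk2 (6.04) reached 7.35 on 1 array, so it overlapped untreated mkk1. For AT4G14090 the step from untreated mkk1 (7.31) to untreated mkk2 (5.95) was 1.36 without overlap, and the other groups overlapped their neighbours down to mkk1/mkk2 BTH at 5.01. UGT78D2 was ordered differently. Untreated Col-0 (9.03) and untreated mkk1 (8.79) overlapped at the top, and a gap of 0.56 without overlap led from untreated mkk1 to Col-0 BTH (8.23). That gap lies between the array sets too, and between untreated and BTH plants. The share of probe sets without overlap was not computed for it or for the DFR gap. Untreated mkk2 (8.18), which reached 8.50, overlapped both untreated mkk1 and Col-0 BTH. The remaining groups, 7.54 to 7.71, overlapped their neighbours.

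Other genes of flavonoid synthesis were taken from lists of 83 pathway, regulator and side-branch genes, also chosen with earlier results known. Of these, 15 had a single-gene probe set, 12 besides DFR, AT4G14090 and UGT78D2. In the BTH response of mkk1, 4 of these 12 were called lower and 0 higher, where 3.81% of all probe sets were called lower. UGT79B1 (AT5G54060), which adds xylose to anthocyanin, was 5.75, 5.76 and 6.20 on the mkk1 BTH arrays and 7.92, 8.10 and 7.92 on the untreated mkk1 arrays. It changed by -2.08 ± 0.27 (limma adjusted p = 4.55e-05). AT5MAT (AT3G29590), the malonyltransferase of anthocyanins, was 4.98, 4.60 and 5.16 after BTH and 6.55, 6.62 and 6.24 untreated (-1.56 ± 0.28, adjusted p = 0.0013). The arrays of both genes were well apart. All 5 measured late anthocyanin genes, of 11 listed, were thus called lower, with a median change of -2.08. They include DFR, AT4G14090 and UGT78D2, so only UGT79B1 and AT5MAT add to the calls given above.

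CHIL and UGT78D1, of the early and flavonol lists, were also called lower in mkk1, and leaving out single arrays ended both calls. CHIL (AT5G05270), a chalcone isomerase-like protein that helps chalcone synthase, was 7.20, 5.56 and 6.95 on the mkk1 BTH arrays and 8.15, 8.22 and 7.88 on the untreated mkk1 arrays (-1.51 ± 0.39, limma adjusted p = 0.0172). It was -1.01 and not called without mkk1 BTH B (adjusted p = 0.146), and its call also ended without mkk1 untreated A (adjusted p = 0.0678) or mkk1 untreated B (adjusted p = 0.0642). UGT78D1 (AT1G30530), which adds rhamnose to flavonols, was 7.24, 6.58 and 6.61 after BTH and 8.59, 8.16 and 7.77 untreated (-1.36 ± 0.38, adjusted p = 0.0276). Its call ended without mkk1 untreated A or B or mkk1 BTH B or C (-1.37 to -1.16, adjusted p = 0.0730 to 0.149). AT1G06000, listed with the flavonol glycosylation genes, changed by -1.02 and was not called (adjusted p = 0.0764).

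The 7 remaining genes did not pass in mkk1. They were UGT78D3, AT5G17040, BAN (AT1G61720), anthocyanidin reductase at the start of proanthocyanidin synthesis, UGT80B1 (AT1G43620), a sterol glucosyltransferase needed for seed coat pigment, HYH (AT3G17609), a light-signalling transcription factor, HCT (AT5G48930), a lignin branch acyltransferase, and UGT84A1 (AT4G15480), which glucosylates hydroxycinnamic acids. Their changes ran from -0.50 for HCT to 0.31 for HYH. The median of all 12 other genes was -0.28 in mkk1. No gene of the general phenylpropanoid or repressor lists had a single-gene probe set, and the early steps are represented by CHIL alone.

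In mkk2, 2 of 12 were called after BTH (10.7% of all probe sets), both lower, CHIL by -1.26 (limma adjusted p = 0.0408) and UGT79B1 by -1.03 (adjusted p = 0.0169). The CHIL call ended in 9 of 31 other settings, among them without any 1 of the 6 mkk2 arrays, Col-0 BTH B or mkk1/mkk2 BTH B (-1.41 to -0.98). The UGT79B1 call ended in 5 of 31, among them without mkk2 untreated A or B or mkk2 BTH C. Without mkk2 untreated B the UGT79B1 change was -0.71 (adjusted p = 0.103). In Col-0, BAN alone was called (8.82% of all probe sets), lower by -0.57 (adjusted p = 0.0313), and this ended in 5 of 31 settings. They included leaving out Col-0 untreated A (-0.48, adjusted p = 0.151), Col-0 untreated B, Col-0 BTH B or Col-0 BTH C. In mkk1/mkk2 none of the 12 was called, while 0.334% of all probe sets were.

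**Figure D3:**
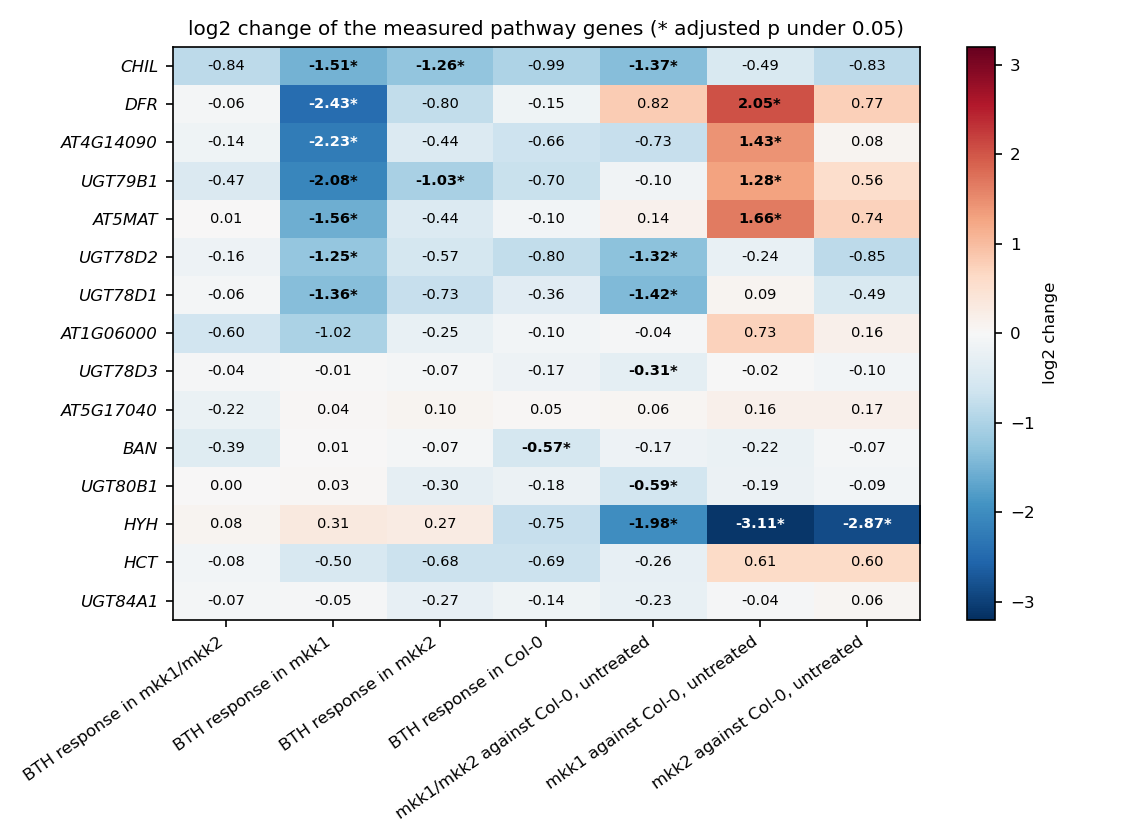
Log2 change of the 15 measured pathway genes (rows, from early to late steps and then side branches) in the 4 BTH responses and the 3 untreated comparisons of a mutant with Col-0 (columns); an asterisk marks an adjusted p under 0.05. In the mkk1 BTH column the late anthocyanin genes DFR, AT4G14090, UGT79B1, AT5MAT and UGT78D2 are all called lower, and the first 4 of them are called higher in untreated mkk1 against Col-0.

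In untreated mkk1 against Col-0, 2 of the 12 were called higher and 1 lower, where 17.3% of all probe sets were called and 9.46% were higher. UGT79B1 was higher by 1.28 (limma adjusted p = 0.0036) and AT5MAT by 1.66 (adjusted p = 0.0009). Together with DFR and AT4G14090 this made 4 of the 5 measured late anthocyanin genes. HYH was lower, at 4.82, 4.30 and 3.83 in untreated mkk1 and 8.05, 7.72 and 6.50 in untreated Col-0 (-3.11 ± 0.57, adjusted p = 0.0014). CHIL (-0.49) and UGT78D1 (0.09) did not pass, as UGT78D2 did not. In untreated mkk2, HYH was lower as well (5.25, 3.98 and 4.42, a difference of -2.87, adjusted p = 0.0062), and no other gene of the 12 was called (7.63% of all probe sets were). Without Col-0 untreated A that value was -2.56 (adjusted p = 0.0513). Between untreated mkk1 and mkk2, HYH differed by -0.23. Both lie in the other array set from Col-0, so the differences from Col-0 cannot be told apart from one between the sets.

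In untreated mkk1/mkk2, within the array set of Col-0, 5 of 12 were called lower and 0 higher, where 17.2% of all probe sets were called lower. CHIL was lower by -1.37 (limma adjusted p = 0.0092) and UGT78D1 by -1.42 (adjusted p = 0.0059), beside the -1.32 of UGT78D2. Without Col-0 untreated B the CHIL difference was -1.16 (adjusted p = 0.0528), while UGT78D1 was called under every other setting tried. HYH was 3.72, 6.21 and 6.41 in untreated mkk1/mkk2, a difference of -1.98 (adjusted p = 0.0108), which was -1.11 without mkk1/mkk2 untreated A (adjusted p = 0.0751) and -1.66 without Col-0 untreated A (adjusted p = 0.0602). UGT78D3 was near the low end of the scale on all arrays (3.06 to 3.75). UGT80B1 (-0.59) and UGT78D3 (-0.31) were small differences whose calls ended in 5 and 15 of the other settings. For UGT80B1 these included leaving out Col-0 untreated A or C or mkk1/mkk2 untreated B or C, and for UGT78D3 leaving out any 1 of 14 arrays. AT5MAT (0.14) and UGT79B1 (-0.10) did not pass. After BTH, 2 of 12 were called in mkk1/mkk2 against Col-0, no larger a share than the 21.6% of all probe sets. They were CHIL (-1.21, adjusted p = 0.0288) and UGT78D1 (-1.11, adjusted p = 0.0399), both lower, and both calls ended without Col-0 BTH A (adjusted p = 0.172 for CHIL and 0.147 for UGT78D1). They also ended without Col-0 BTH B, mkk1/mkk2 BTH B or mkk1/mkk2 BTH C, and that of UGT78D1 without mkk1/mkk2 BTH A. None of the 12 was called in mkk1 or mkk2 against Col-0 after BTH. HYH still differed there by -2.05 in mkk1 and -1.85 in mkk2, again between the array sets.

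Across the 24 arrays the 3 genes did not follow each other equally. Pearson's r was 0.735 (Spearman's rho 0.484) between DFR and AT4G14090, 0.681 (rho 0.757) between AT4G14090 and UGT78D2, and 0.276 (rho 0.294) between DFR and UGT78D2. These describe arrays that share groups and array sets. DFR was nearer to AT5MAT (0.815) and UGT79B1 (0.795), and AT4G14090 to UGT79B1 (0.906), AT5MAT (0.885) and AT1G06000 (0.831). UGT78D2 was nearer to CHIL (0.873) and UGT78D1 (0.842) than to any measured late anthocyanin gene.

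Over all 13355 single-gene probe sets, the genes most like DFR by r over the 24 arrays were AT3G19100 (0.878), AT4G03100 (0.872), GH9B13 (0.848), AT1G06100 (0.833) and AT3G05600 (0.831). Over the 8 group means the same genes had r of 0.889 to 0.962. Those most like AT4G14090 were AT1G66430 (0.910), AT4G18970 (0.907), UGT79B1 (0.906), AT3G05470 (0.899) and AT1G10850 (0.893). Those most like UGT78D2 were AT3G05180 (0.908), AT1G48100 (0.905), AT5G52420 (0.892), TBL41 (0.888) and AT3G17130 (0.885). UGT79B1 was the only gene of the pathway lists among these 15, and the 3 lists of 5 had no gene in common.

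**Figure D4:**
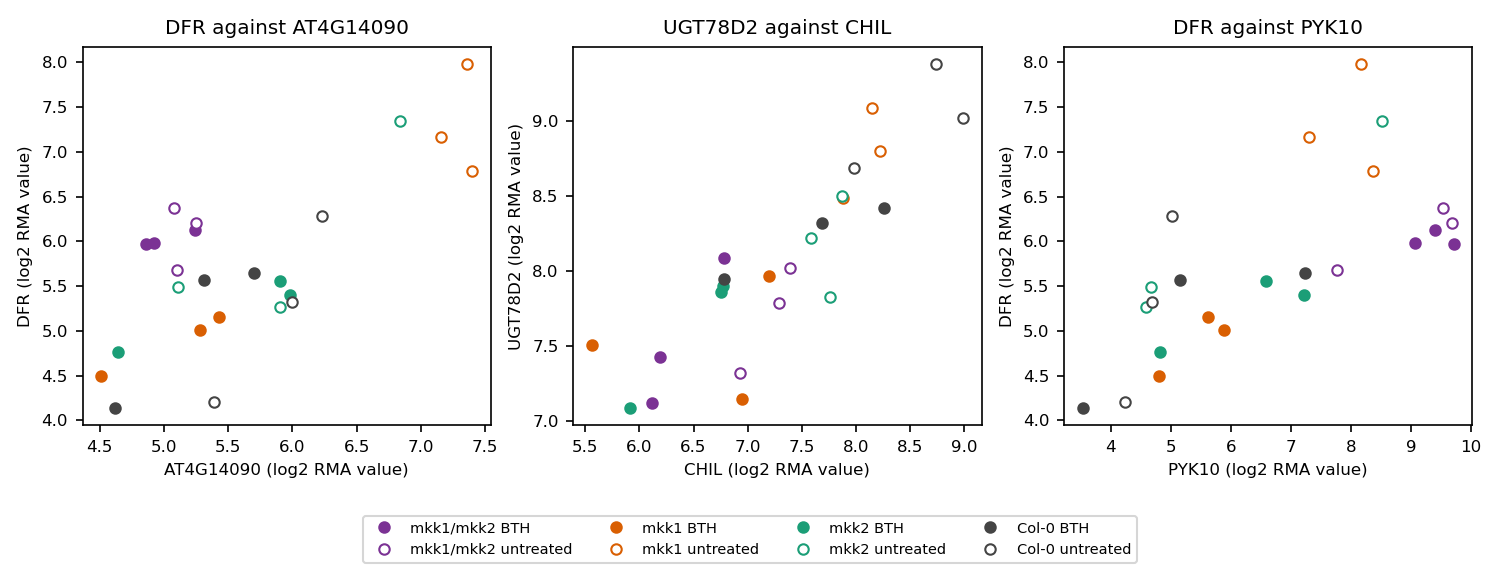
Levels (log2 RMA value) of DFR against AT4G14090, UGT78D2 against CHIL and DFR against PYK10, a root marker; each point is 1 of 24 arrays, coloured by genotype, filled for BTH and open for untreated. Pearson's r is 0.735, 0.873 and 0.684; in the first panel untreated mkk1 and mkk2 untreated B lie at the upper right, and in the third the mkk1/mkk2 arrays lie at high PYK10 with DFR between 5.68 and 6.37.

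Whole plants were sampled, and 1 root marker, PYK10, moved with some of these results. Of 9 root markers 3 were measured. PYK10 (AT3G09260), a root beta-glucosidase, was 5.62, 4.81 and 5.89 on the mkk1 BTH arrays and 8.37, 8.16 and 7.30 on the untreated mkk1 arrays (-2.50, limma adjusted p = 0.103). It was 4.23 to 5.02 on untreated Col-0 arrays, a difference of 3.30 for untreated mkk1 against Col-0 (adjusted p = 0.0173). The other 2, PRX72 (2.85 to 3.43) and AT4G30170 (2.90 to 3.48), were near the low end of the scale on all arrays. The summed linear level of the 3 followed PYK10, since the other 2 varied little, and adds no separate evidence. It was 45.1 to 78.5 in mkk1 BTH and 177 to 352 in untreated mkk1, and 35.9 to 49.6 in untreated Col-0. On mkk2 untreated B, the array with the high DFR and AT4G14090, PYK10 was 8.52, against 4.59 and 4.67 on A and C. On the mkk1/mkk2 arrays it was 7.76 to 9.71. There DFR was 5.68 to 6.37, AT4G14090 4.86 to 5.25 and UGT78D2 7.12 to 8.09. Against Col-0, DFR differed there by 0.82 untreated and 0.91 after BTH, AT4G14090 by -0.73 and -0.20, and UGT78D2 by -1.32 and -0.68. The r of PYK10 over the 24 arrays was 0.684 with DFR, 0.205 with AT4G14090 and -0.18 with UGT78D2. Over the 8 group means r was 0.649, -0.012 and -0.374. After each group's mean was taken off, r was 0.777, 0.823 and 0.379. Arrays far from their group in PYK10 weigh on these values. Among them are mkk2 untreated B and Col-0 BTH A (7.24, against 5.16 and 3.53 on B and C). No r was computed without them. The part of root tissue in the mkk1 results was not tested, and fewer cells of a type and less RNA per cell cannot be told apart in such samples.

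No marker of the seed or flower lists had a single-gene probe set. Of 5 senescent leaf markers only WRKY53 did, at 7.25 to 7.58 in mkk1 BTH and 5.85 to 6.78 in untreated mkk1. WRKY53 was also 7.47 to 7.84 in mkk2 BTH and 5.73 to 6.56 in untreated mkk2, and 4.75 to 8.54 in untreated Col-0. In the GAPDH controls, which read RNA quality, 3′ minus 5′ signal was -0.04 to 0.23 in mkk1 BTH and 0.26 to 0.31 in untreated mkk1, without overlap. In mkk2 it was -0.07 to 0.19 after BTH and 0.30 to 0.61 untreated, also without overlap. DFR, AT4G14090 and UGT78D2 changed there by -0.80, -0.44 and -0.57, all lower and none called. The part of RNA quality in the mkk1 results was not tested.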

How the data were processed

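Total RNA of whole plants was hybridised to ATH1 arrays, 1 array for each of 24 samples. The deposited values are log2 expression values that the authors made with RMA (background correction, quantile normalisation and summary per probe set), per the submitters' processing notes. Its version, and which arrays were normalised together, are not given in the sources used here. Groups and letters came from sample titles. Of 22810 probe sets, 64 AFFX controls were set aside for quality measures and 22746 tested without a filter. Genes were named from the array annotation and the TAIR10.1 genes. The annotation held a single symbol for 13513 probe sets (13436 in the reference), several for 503 and none for 8730, and only the first kind was named. No 2 arrays held identical values (0 pairs). Per-probe depth is not defined for arrays.

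The 8 group means were fitted with limma 3.58.1 (lmFit and eBayes, R 4.3.3, data.table version 1.17.8), with 16 comparisons and Benjamini-Hochberg adjustment over all probe sets in each. An adjusted p under 0.05 was called. Intervals of 95% are unadjusted. The calculation was tested on simulated data. The text names DFR, AT4G14090 and UGT78D2, measured genes of the pathway and marker lists, the 5 genes most like each by Pearson's r, and 2 BTH check genes. These genes and lists were chosen with earlier results of these data known. The labels do not say that a letter marks a shared batch. Deviations of same-letter arrays correlated at -0.21 to 0.61, and all 3 letters passed 0.1 in 1 of 12 two-group comparisons, BTH in mkk1/mkk2. The letters were therefore not taken as pairs. Promoter and mature sequences and genome coordinates were not used here.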

Additional observations from a re-analysis of the deposited data

How the results depend on the processing

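The alternatives were leaving out each array, the replicate letter as a block, only the arrays of the compared groups, arrays centred on their medians, leaving out the dimmest 25% of probe sets, eBayes with trend and robust, and leaving out arrays of low correlation. DFR and AT4G14090 in the BTH response of mkk1, and UGT78D2 in untreated mkk1/mkk2 against Col-0, were called under every alternative run. With the replicate block, 3 UGT78D2 values passed the test, BTH in Col-0 (-0.80, adjusted p = 0.00778), untreated mkk2 against Col-0 (-0.85, adjusted p = 0.00882) and mkk1/mkk2 against Col-0 after BTH (-0.68, adjusted p = 0.00985). The block changed no other result of the 3 genes and ended no call of the other pathway genes, whose results that were not called were not rerun, and 13 of 24 arrays correlated best with their own letter. The 3 arrays of lowest correlation were the whole untreated mkk1/mkk2 group, and leaving them out, run for comparisons of other groups, changed no call. Each of the 3 genes had 1 single-gene probe set, so another could not be tried. Leaving out the 3 arrays that stood apart, 1 in each of 3 groups, was added after the data were seen. It turned the sign of values that were not called, DFR in mkk1 against Col-0 after BTH (0.028) and in the response difference mkk2 minus Col-0 (0.27), and AT4G14090 in BTH in mkk2 (0.0017), untreated mkk2 against Col-0 (-0.37), and mkk1 (0.11) and mkk1/mkk2 (0.042) against Col-0 after BTH. Past the test it brought untreated mkk1 against mkk2 for DFR (1.93) and AT4G14090 (1.80), the AT4G14090 response difference mkk1 minus mkk2 (-2.24), and UGT78D2 in untreated mkk2 against Col-0 (-1.005). In these comparisons, in that order, 1300, 463 and 2810 probe sets were called in that setting.

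Leaving out 1 array at a time ended or turned these results, given as ranges. DFR ranged from -0.68 to 0.36 for BTH in Col-0, -0.26 to 0.087 for BTH in mkk1/mkk2, and 1.51 to 2.55 for untreated mkk1 against Col-0. After BTH it ranged from -0.73 to 0.028 in mkk1 and -0.37 to 0.39 in mkk2 against Col-0, and its response differences from -1.16 to 0.0067 (mkk2 minus Col-0) and -0.42 to 0.62 (mkk1/mkk2 minus Col-0). AT4G14090 ranged from -0.86 to 0.0017 for BTH in mkk2, 1.19 to 1.61 for untreated mkk1, -0.37 to 0.50 for untreated mkk2, -0.43 to 0.15 for mkk1 after BTH and -0.50 to 0.042 for mkk1/mkk2 after BTH, each against Col-0 where a mutant is named. Its response difference mkk2 minus Col-0 ranged from -0.20 to 0.67, and untreated mkk1 against mkk2 from 0.94 to 1.80, called (adjusted p = 0.0462) without mkk2 untreated B. UGT78D2 ranged from -1.46 to -1.05 for BTH in mkk1, -0.44 to 0.05 for BTH in mkk1/mkk2, and -0.34 to 0.12 for mkk1 against mkk2 after BTH. It ranged from -1.02 to -0.67 for untreated mkk2 and -0.96 to -0.47 for mkk1/mkk2 after BTH, against Col-0, called without Col-0 untreated C (adjusted p = 0.0487) and without mkk1/mkk2 BTH A (adjusted p = 0.0320).

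The number of probe sets called behind each background share moved more. For the BTH responses it was 1950 in mkk1 (897 to 4158 over the other settings), 2444 in mkk2 (1600 to 4250), 76 in mkk1/mkk2 (0 to 181) and 2006 in Col-0 (1241 to 3693). Against untreated Col-0 it was 3931 in mkk1 (1745 to 6643), 1736 in mkk2 (0 to 3345) and 7573 in mkk1/mkk2 (4183 to 9042). After BTH, against Col-0, it was 141 in mkk1 (8 to 1215), 417 in mkk2 (70 to 1470) and 4918 in mkk1/mkk2 (3770 to 6351). For the response differences from Col-0 it was 0 in mkk1 (0 to 28), 5 in mkk2 (0 to 26) and 531 in mkk1/mkk2 (258 to 1083). For mkk1 against mkk2 it was 1 untreated (0 to 1300), 7 after BTH (3 to 28) and 1 for the response (0 to 463).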
